A study of Mus musculus with 3 samples.

Results

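The mRNAs of translation initiation factors were examined by bisulfite sequencing in mouse embryonic stem cells that lack Tet1, Tet2 and Tet3. The members were every gene whose symbol begins with Eif, which takes in the inhibitor 4E-BP1 (gene Eif4ebp1). The rule itself uses names and no measured value, but the family was picked with earlier results of these data known. They comprised 55 genes of the 13224 genes listed in the deposited tables, read as 76 of 15021 transcript models. These models held 19485 listed cytosines, of which 12584 had a coverage of at least 10 reads in all 3 libraries and are called testable here, out of 1639820 testable cytosines in all.

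The 3 libraries formed 1 group, replicates 1, 2 and 3, all with genotype Tet1-/-,Tet2-/-,Tet3-/- on the J1 background, and no Tet-proficient cells were analysed here. The cells had been grown on fibroblast feeders that were then depleted by letting them attach, and the sequenced RNA was the polyadenylated fraction. Nothing in the labels says whether the replicates were separate cultures or clones, so a spread between them may be technical. Bisulfite turns unmodified cytosine into uracil and leaves 5-methylcytosine and 5-hydroxymethylcytosine as cytosine, so a read that still shows cytosine (an unconverted read) may come from either modification or from failed conversion.

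Translation initiation brings a ribosome to the start codon of an mRNA. eIF4E binds the cap, the scaffold eIF4G and the helicase eIF4A join it to form eIF4F, eIF3 links this complex to the small ribosomal subunit, and eIF2 delivers the initiator tRNA. The 4E-BP proteins hold eIF4E away from eIF4G until mTORC1, a growth-sensing kinase complex, phosphorylates them, whereas kinases that phosphorylate eIF2 block its recycling by eIF2B. eIF5A carries hypusine, a modified lysine, and helps ribosomes through difficult peptide bonds.

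Coverage summed over cytosines ran from 139884444 to 151362866 per library, and the Eif genes took 1.20%, 1.21% and 1.20% of it in replicates 1, 2 and 3. The library-wide unconverted share, used as the background, was 1.53%, 1.45% and 1.41%. All 8 embryonic stem cell markers of a preset list (Pou5f1, Sox2, Nanog and others) were listed and together took between 0.523% and 0.528% of the coverage, while 6 of 8 feeder fibroblast markers took between 0.0517% and 0.0694%, with Postn and Dcn not listed. The part of feeder RNA in the Eif values was not tested. In bulk RNA, fewer cells of a type and less RNA per cell cannot be told apart.

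Positions below count from 1 at the first base of the transcript model. The sequence table used here holds starts of Eif transcripts but not the bases around the Eif4ebp1 site, and it was used to check that count. Of 30 Eif transcripts with at least 5 listed cytosines in their first 50 nt and a start in the table, 20 had every such cytosine on a C, 258 cytosines in all, and the other 10 had at least 1 on another base. The first 30 nt of 6 well covered members are shown 5′ to 3′ from RefSeq (GRCm38.p6), with listed cytosines in capitals, because they show where the reads of these mRNAs begin and that almost all of these cytosines were read as converted. They are Eif3l at chr15:79075223-79075252 (plus strand), Eif3m at chr2:105016998-105017027 (minus strand), Eif3b at chr5:140419305-140419334 (plus strand), Eif2s1 at chr12:78862072-78862101 (plus strand), Eif4a3 at chr11:119300014-119300043 (minus strand) and Eif4ebp2 at chr10:61452640-61452669 (minus strand).
Eif3l: tCCgCtCtCtCCCaCgggCttCtggagCgC
Eif3m: gtttCtggatCggagCgtCttCCgCagCCC
Eif3b: gacttCtgggagtCggaagCagggCggCCg
Eif2s1: agCgCaCgCtgaggagCttCggCgtCCggg
Eif4a3: cCggttCCCgCCgCggCttgCagttgtCtt
Eif4ebp2: CgaCCgggCgagagCaggCgagttgagagC
In the stretch of Eif3l, a subunit of eIF3, 21 of 1740 cytosine reads were unconverted over the 3 libraries (1.21%), and in that of Eif3m, another subunit, 16 of 1570 (1.02%). Eif4ebp2, which encodes the close relative 4E-BP2, gave 6 of 682 reads (0.880%). None of the testable cytosines in the printed stretches was a candidate as defined next.

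A candidate site had a mean unconverted share of at least 10% over the 3 libraries, lay above the background in each, and passed an adjusted p of 0.05 (a one-sided exact binomial test per library, with Fisher's combination of the 3 p-values and a Benjamini-Hochberg adjustment across every testable cytosine of the series). The Eif mRNAs held 5 candidates, or 0.0397% of their testable cytosines (exact 95% interval 0.0129 to 0.0927%), where 0.0473% of all testable cytosines were called. The share in the Eif mRNAs was thus near the background rate, which lies inside that interval. The 5 sites fell in 5 genes: the eIF4E inhibitor Eif4ebp1, the eIF3 subunit Eif3i, the cap-binding protein Eif4e2, the eIF2B subunit Eif2b5 and the helicase Eif4a2.

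**Figure D1:**
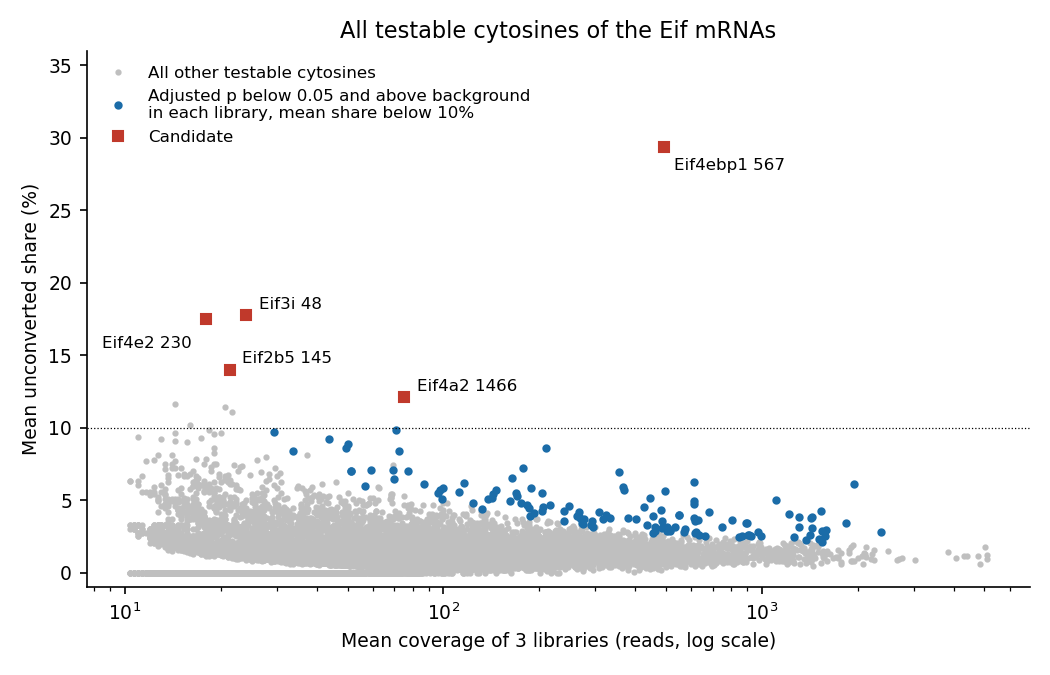
Each point is 1 of the 12584 testable cytosines of the Eif mRNAs, placed by mean coverage of the 3 libraries (x, reads, log scale) and mean unconverted share (y, percent); the dotted line marks 10%. Eif4ebp1 position 567 stands at 29.4% and a mean of 491 reads, and the other 4 candidates lie between 12.1% and 17.8% at lower coverage.

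The cytosine at position 567 of Eif4ebp1 (NM_007918.3) had the highest share of any testable cytosine in the Eif mRNAs. It was unconverted in 144 of 520 reads in replicate 1 (27.7%), 130 of 448 in replicate 2 (29.0%) and 159 of 506 in replicate 3 (31.4%). The 3 values lay close together, and their exact 95% intervals (23.9 to 31.8%, 24.9 to 33.5% and 27.4 to 35.7%) overlapped. The mean was 29.4% ± 1.89 (SD, n = 3), with one-sided exact binomial p = 1.09e-132, 6.99e-126 and 5.67e-162 against the background of each library. Among the 775 candidates of all genes it ranked 36 by share and 5 by reads, with 1474 reads, and no candidate was both deeper and higher. The median candidate had 12.9% and 82 reads.

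The rest of the same transcript gave a reference read in the same libraries. The 286 other listed cytosines of Eif4ebp1 were unconverted in 1.60%, 1.53% and 1.56% of reads. A two-sided Fisher's exact test of the site against them gave odds ratios of 23.6, 26.4 and 28.9 (exact p = 4.91e-128, 3.54e-121 and 2.10e-152). Against the 64 listed cytosines within 100 nt the mean odds ratio was 30.2 ± 2.82 (SD, n = 3). The site was picked as the highest testable cytosine of its transcript, so the direction of these tests was fixed in advance. The odds ratios describe how far it stood from its surroundings. A read counts at every cytosine it spans, so the p-values rest on counts that are not independent.

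The elevation was restricted to a single cytosine at the resolution of the listed positions. The nearest listed cytosine before it, position 565, was unconverted in 1.81%, 1.70% and 0.670% of reads, a mean of 1.39% ± 0.630 (SD, n = 3). The nearest after it, position 574, had a mean of 2.50% ± 0.340 (SD, n = 3). The 7 listed cytosines within 10 nt were unconverted in 158 of 12150 reads over the 3 libraries (1.30%). Within 50 nt, 33 listed cytosines ran from 0.185% to 2.83%, with a median of 1.42%, so none came near the site. The next highest testable cytosine of the transcript was position 793, with 6.47% ± 3.54 (SD, n = 3), which did not pass the adjusted test.

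Coverage was higher at the site than on either side of it. Over the 3 libraries the site had 1474 reads, and the 7 listed cytosines within 10 nt had 12150 together. The median listed cytosine 50 to 100 nt before the site had 888.5 reads over the 3 libraries, and that 50 to 100 nt after it had 539. The deepest cytosine of the transcript was position 157, with 7083 reads over the 3 libraries, a mean of 2361 per library. The part of this coverage pattern in the share at position 567 was not tested.

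Eif4ebp1 also held a cluster of weakly unconverted cytosines. Sites at any level had an adjusted p below 0.05 by the same test and lay above the background in each library. Eif4ebp1 had 17 among 243 testable cytosines. Over all testable cytosines 0.469% were called, and in other genes at a mean coverage of 100 or more 2.32% were. Of the 17, 11 stood among the 21 listed cytosines from position 157 to position 203. This run begins near the coverage peak and ends 364 nt before position 567. The called cytosines of the run had mean shares from 2.56% to 6.30%. The highest, position 196, was unconverted in 6.84%, 6.42% and 5.63% of reads, a mean of 6.30% ± 0.618 (SD, n = 3; adjusted p = 6.34e-32 by the exact binomial test with Fisher's combination). Over all 21 cytosines the share was 2.63% ± 0.0825, against 1.08% ± 0.0337 before the run, 1.41% ± 0.0460 between the run and the site, and 1.48% ± 0.0565 after the site (SD, n = 3 each). In each library the run was the highest of these 4 segments. Because the boundaries were drawn from the called cytosines, these segment values are a description with no test.

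**Figure D2:**
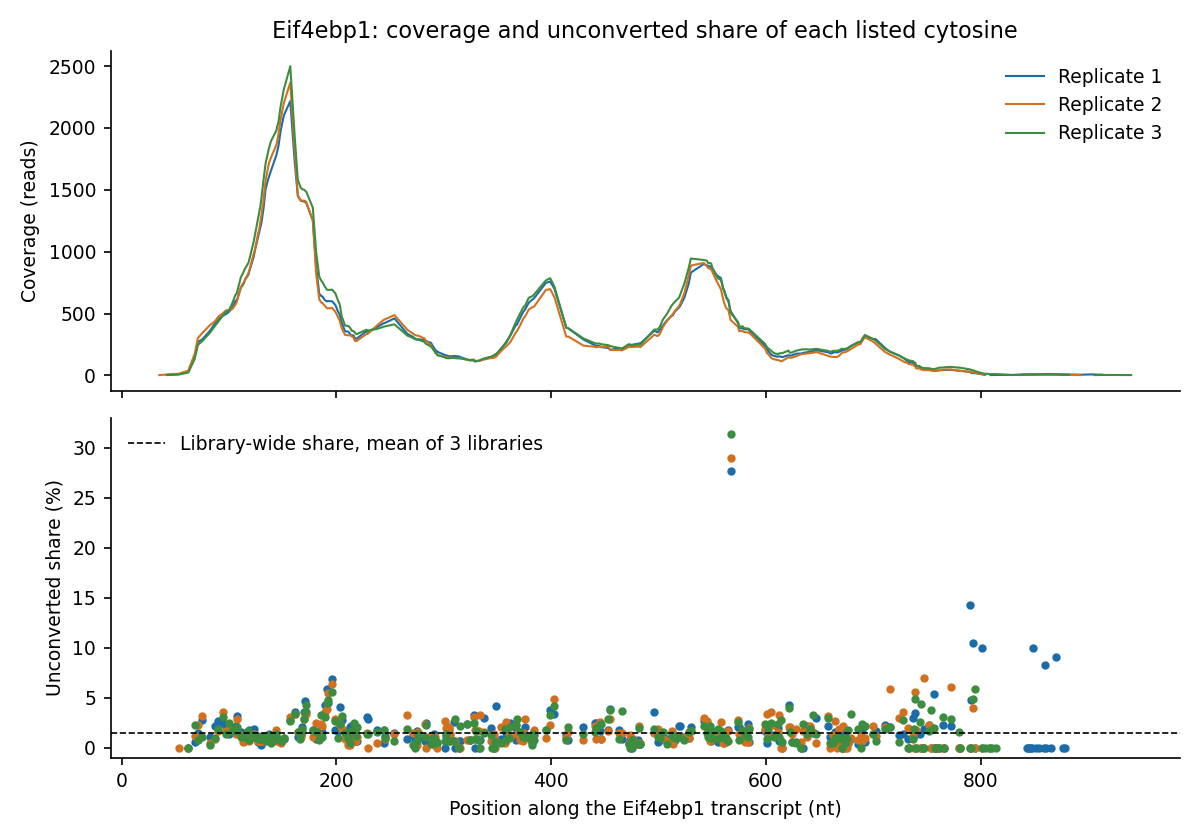
Upper panel, coverage (reads) of each listed cytosine of Eif4ebp1 by position along the transcript (nt) in the 3 libraries; lower panel, unconverted share (percent) at cytosines with at least 10 reads in that library, with the mean library-wide share dashed. The 3 libraries peak together at position 567 (27.7%, 29.0% and 31.4%), and the run from 157 to 203 forms a low rise, highest at position 196 (6.84%, 6.42% and 5.63%).

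The site carried a visible part of the unconverted reads of the gene. It held 7.57% ± 0.289 (SD, n = 3) of all unconverted reads of Eif4ebp1. The whole transcript was unconverted in 1.72%, 1.64% and 1.69% of cytosine reads, a mean of 1.68% ± 0.0392. Without the site the mean was 1.56% ± 0.0346, and without the site and the run it was 1.29% ± 0.0343 (SD, n = 3 each).

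The depth of Eif4ebp1 sets how closely this site could be read. Eif4ebp1 had the highest median coverage per listed cytosine of the Eif genes, at 247, 230 and 248 reads in replicates 1, 2 and 3. Eif1, which guards start codon choice, followed with 134, 124 and 128 reads, and then Eif4h, a helper of the eIF4A helicase, with 123, 121 and 118. The next 7 were Eif3c, Eif3a, Eif4b, Eif3h, Eif3b, Eif3l and Eif3i, whose means ran from 115.0 down to 73.3 reads. Eif4ebp1 lay above the others in every library. Eif1 and Eif4h were next to each other without overlap (lowest 124 against highest 123), whereas Eif3c and Eif3a overlapped (115.0 ± 11.5 and 113.7 ± 8.50, SD, n = 3).

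The relatives of 4E-BP1 gave no such site. Eif4ebp2 had 340 testable cytosines, none of them called at any level, where 0.469% of all testable cytosines were. In other genes at a mean coverage of 20 to 50 reads 0.132% were called, so few calls could have been seen in Eif4ebp2. Its share was 1.46%, 1.33% and 1.27% at a median coverage of 22.3 ± 2.52 reads (SD, n = 3). Eif4ebp3, the gene of the remaining 4E-BP, had at most 490 cytosine reads in a library and no testable cytosine. Eif4enif1, whose protein carries eIF4E into the nucleus, also had no testable cytosine. For these last genes a site of the Eif4ebp1 kind was not detectable at this depth.

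The other 4 candidates rested on far fewer reads, and their libraries disagreed more. Eif3i (NM_018799.2), an eIF3 subunit with WD repeats, was unconverted at position 48 in 2 of 21, 6 of 30 and 5 of 21 reads, a mean of 17.8% ± 7.40 (SD, n = 3; adjusted p = 5.90e-07). Only 1 of 342 reads was unconverted at the 6 listed cytosines within 10 nt of it. The replicate 1 value of 9.52% was the lowest, and its exact interval (1.17 to 30.4%) took in the other values.

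Eif4a2 (NM_001123038.2), the second eIF4A helicase, was unconverted at position 1466 in 12 of 80, 11 of 68 and 4 of 78 reads, a mean of 12.1% ± 6.07 (SD, n = 3; adjusted p = 7.94e-13). Replicate 3, at 5.13%, was below the 10% level that the other replicates exceeded. These adjusted p-values come from the exact binomial test with Fisher's combination, which takes no account of spread between libraries.

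Eif4e2 (NM_001039169.1), a cap-binding relative of eIF4E linked to repression, was unconverted at position 230 in 3 of 10, 3 of 23 and 2 of 21 reads, a mean of 17.5% ± 10.9 (SD, n = 3; adjusted p = 0.00342). Without replicate 1 its mean was 11.3% (adjusted p = 0.252), and without replicate 2 it was 19.8% (adjusted p = 0.0573). Eif2b5 (NM_172265.2), the catalytic subunit of eIF2B, was unconverted at position 145 in 4 of 28, 1 of 18 and 4 of 18 reads, a mean of 14.0% ± 8.34 (SD, n = 3; adjusted p = 0.00145). Its mean was 13.9% without replicate 1 (adjusted p = 0.0773) and 9.92% without replicate 3 (adjusted p = 0.298). Without replicate 3 Eif4e2 was still called, at a mean of 21.5% (adjusted p = 0.0121). Without replicate 2 Eif2b5 was still called, at a mean of 18.3% (adjusted p = 0.00116). At coverages of 10 to 28 reads, whether either call was kept thus depended on which library was left out. Some calls were lost at a share as high as before. All p-values here are from the exact binomial test combined by Fisher's method.

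**Figure D3:**
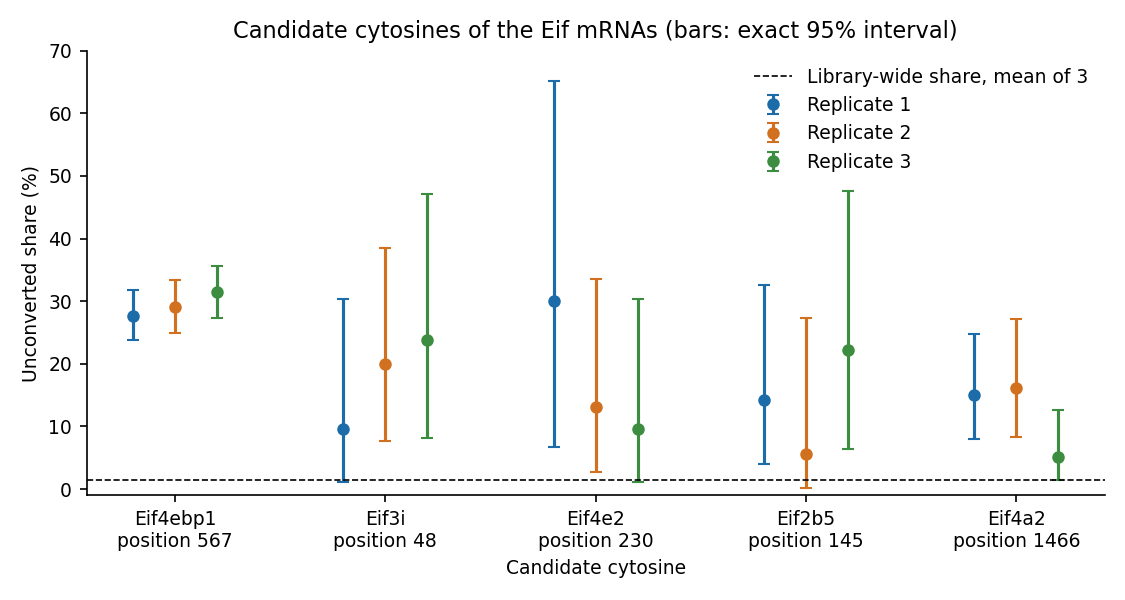
Unconverted share (percent) of the 5 candidate cytosines of the Eif mRNAs in replicates 1, 2 and 3, with exact 95% binomial intervals as bars and the mean library-wide share dashed. The bars of Eif4ebp1 are narrow (23.9 to 31.8% in replicate 1), while those of Eif4e2 reach from 6.67% to 65.2% in replicate 1.

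Values close to the rule show how it divided the members. Just inside it was Eif4a2 position 1466 at 12.1%, and just outside it were Eif4h position 1075 (9.87% ± 5.19), Eif5b position 511 (9.70% ± 4.73) and Eif3b position 1328 (9.25% ± 3.31; SD, n = 3 each). Eif4h position 1415 was at 8.60% ± 0.682 (SD, n = 3), with 17 of 202, 18 of 224 and 19 of 203 reads, and so its SD was smaller than that of any of the 5 candidates. Another 4 cytosines, all in genes around eIF2, exceeded 10% but missed the adjusted test: Eif2ak1 position 158, Eif2b4 position 130, Eif2b5 position 308 and Eif2b2 position 127, with means from 10.2% to 11.7% and adjusted p from 0.0657 to 0.402 in the exact binomial test.

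Weaker signals were spread over more of the family. At any level, 130 Eif cytosines were called (1.03% of the testable ones), where 0.469% of all testable cytosines were called. The Eif cytosines were also deeper, with a median coverage of 66, 58 and 59 reads against 33, 30 and 29 for all testable cytosines. Compared within like coverage, the shares called were close: at a mean coverage of 100 or more, 2.49% in Eif against 2.32% in other genes, at 50 to 100 it was 0.532% against 0.410%, and at 20 to 50 it was 0.157% against 0.132%. The Eif share was the higher in each of these classes, and the differences were not tested because cytosines on shared reads are not independent.

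Of the 130, 125 had a mean share below 10%, 85 of them below 5%. They lay in 28 genes, and 5 genes held 73 of them. Eif3a had 21 among 802 testable cytosines, Eif4ebp1 17 among 243, Eif4h 13 among 566, Eif4b 12 among 751 and Eif3b 10 among 739. Over all testable cytosines 0.469% were called, and in other genes at a mean coverage of 100 or more 2.32% were. The part of length and depth in these counts was not tested. Eif3a, the largest eIF3 subunit, had its 21 between positions 220 and 4002 at 2.46% to 5.93%. Eif4b, another helper of eIF4A, had its 12 between positions 361 and 3514 at 3.18% to 5.11%, with none within 10 nt of another. Several weak sites rested on many reads and varied little between libraries. Eif2s2 position 361, with a mean coverage of 1951 reads, was unconverted in 6.36%, 5.85% and 6.20%, a mean of 6.14% ± 0.256 (SD, n = 3; adjusted p = 1.68e-102 by the exact binomial test). Eif3a position 3084 had 5.14%, 5.49% and 4.48% at a mean coverage of 1107 reads. Eif4e position 467, in the mRNA of the cap-binding protein that 4E-BP1 holds, had 6.86%, 5.78% and 4.57% at 368 reads. These 3 sites lay well under the Eif4ebp1 site, and in each of them every library was above its background.

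Some called cytosines had another within 10 nt. In Eif4ebp1 these were 13 of 17, and in all other Eif genes 22 of 113, among them 8 of 21 in Eif3a, 3 of 4 in Eif2s2, 3 of 7 in Eif3h and all 2 in each of Eif2b3 and Eif3d. These counts were not set against the spacing of deep cytosines.

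Summed over all cytosines, the Eif mRNAs were unconverted in 1.57%, 1.46% and 1.42% of reads, and all other genes in 1.53%, 1.45% and 1.41%. Eif was higher in 3 of 3 libraries, by 0.0226 ± 0.0141 percentage points (SD, n = 3; two-sided exact sign-flip permutation p = 0.25, the smallest that 3 libraries allow). Without Eif4ebp1 the difference was 0.00872 points and was positive in 1 of 3 libraries. Without the 10 Eif genes with the most cytosine reads it was -0.0172 points. Because 3 libraries cannot give a smaller p, this test cannot decide whether the family as a whole differs from other mRNAs. The sign of the small difference depended on which Eif genes were included.

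Single genes were compared with their library by limma on log2 odds, for 43 Eif genes with at least 1000 cytosine reads in each library. No Eif gene passed an adjusted p of 0.05, and of the 7356 genes tested 0% were called. At an unadjusted p below 0.05 there were 9 Eif genes higher and 6 lower, where 11.3% and 8.31% of all genes were. The median Eif gene was at 0.017 and the median of all genes at -0.0040 on the log2 odds scale. The outermost Eif genes lay beyond the central range of all genes, whose 5th and 95th percentiles were -0.24 and 0.26.

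When limma's prior variance was allowed to follow coverage, an option added after the data were seen, 8 Eif genes were higher and 11 lower, where 7.65% and 6.76% of all genes were called. With the original prior and at least 5000 cytosine reads, 3 of 37 Eif genes were higher and 2 lower, where 4.46% and 2.1% were called. The log2 odds of each gene were the same in these 3 fits, but the standard errors were not. With the coverage-dependent prior the SE of Eif3a was 0.016 in place of 0.043, and that of Eif1b was 0.14 in place of 0.069. Which part of the fits changed the number of calls was not tested.

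At the high end stood Eif2b3, the partner of the catalytic subunit of eIF2B, with 2.03%, 2.07% and 1.72% of reads unconverted. Most of its reads (3314 of 3703 in replicate 1) came from NM_001111277.1, on 74 cytosines from position 1223 to 1510. That model was at 1.99%, 2.19% and 1.83%. The other model, NM_175135.4, was at 2.31%, 0.860% and 0.610% on at most 389 reads in a library. The log2 odds of Eif2b3 against the library were 0.42 ± 0.061 (SE, limma), with an adjusted p of 0.144, or 0.00731 with the coverage-dependent prior. Eif3a had 1.79%, 1.70% and 1.63% (0.23 ± 0.043), Eif4a3, a helicase of the exon junction complex, 1.76%, 1.69% and 1.62% (0.21 ± 0.043), and Eif4ebp1 0.20 ± 0.048 (SE, limma). These 3 passed at 5000 reads, with limma adjusted p of 0.0384, 0.0416 and 0.0492.

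At the low end stood Eif1b, a paralogue of the start codon factor Eif1, with 0.934%, 1.06% and 0.968% of reads unconverted. Its log2 odds were -0.54 ± 0.069 (SE, limma), with an adjusted p of 0.144, or 0.00858 with the coverage-dependent prior. Eif2b1, the alpha subunit of eIF2B, had 1.49%, 1.10% and 1.08%, so that replicate 1 lay near its library-wide share and the others below theirs. Eif3e had 1.40%, 1.17% and 1.20%, and Eif5a 1.32%, 1.28% and 1.22%, each below the library-wide share in 3 of 3 libraries. Reads of Eif1 and Eif1b, of other near-identical paralogues, and of the 11 Eif pseudogenes in the name table may have been split or misplaced in the deposited alignments, so values of such genes are uncertain.

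**Figure D4:**
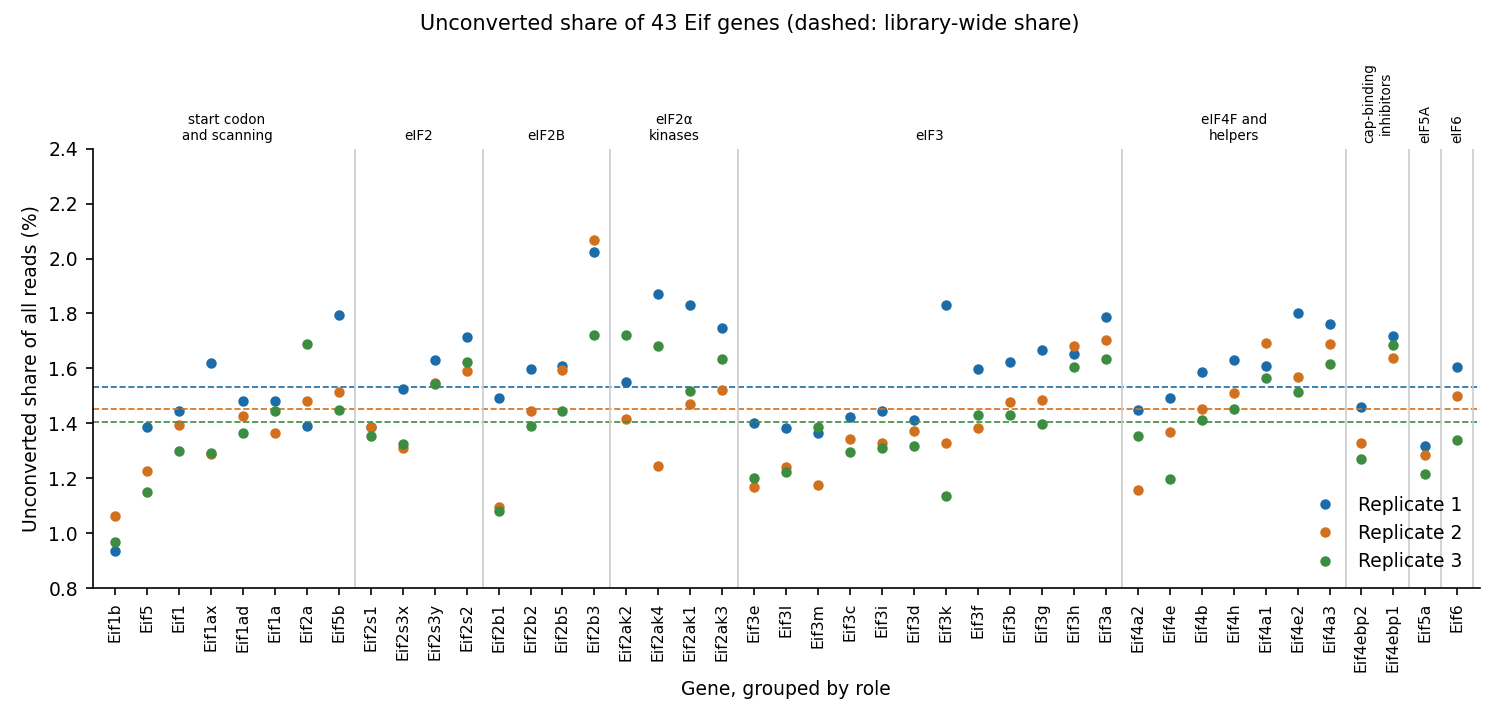
Unconverted share of all cytosine reads (y, percent) of the 43 Eif genes with at least 1000 cytosine reads in each library, grouped by role (x), with 1 point per library and the library-wide shares dashed. Eif2b3 is the highest, at a mean of 1.94%, and Eif1b the lowest, at 0.989%.

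By role, the shares of the complexes lay within a narrow band. The 14 eIF3 genes held 44.3% of the cytosine reads of the family and were unconverted in 1.47% ± 0.0756, from 1.26% in Eif3e to 1.71% in Eif3a. The 12 genes grouped here as eIF4F and its helpers were at 1.51% ± 0.0895, from 1.32% in Eif4a2 to 1.69% in Eif4a3. This group was drawn by name and takes in relatives with other roles, such as Eif4a3 of the exon junction complex and Eif4e2. The 4 genes of the cap-binding inhibitors were at 1.64% ± 0.0396, with most of the reads on Eif4ebp1. The highest and lowest gene of a role are given among those with at least 1000 reads, and all errors are SDs over 3 libraries.

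The 4 genes of eIF2, which carries the initiator tRNA, were at 1.53% ± 0.0638, from 1.38% in Eif2s1 (alpha subunit, the target of the stress kinases) to 1.64% in Eif2s2 (beta subunit). The 4 kinases of eIF2 alpha were at 1.61% ± 0.157, between 1.56% in Eif2ak2 (PKR) and 1.64% in Eif2ak3 (PERK), with 416 testable cytosines and none called at any level, where 0.469% of all testable cytosines were, so few calls could have been seen in them. The 5 eIF2B genes were at 1.47% ± 0.126 and included the family's highest gene. The 9 genes of start codon choice and scanning were at 1.42% ± 0.0816, from 0.989% in Eif1b to 1.59% in Eif5b, the factor for subunit joining. Eif6, which keeps the ribosomal subunits apart, was at 1.48% ± 0.134. Both eIF5A genes together were the lowest role, at 1.28% ± 0.0510. No test was run between roles (SD, n = 3 each).

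Eif5a showed how the deposited tables divide a gene among transcript models. It was listed as 8 models with 269 cytosines, the first at position 10 and none beyond position 321. NM_181582.4 held 91.3%, 90.8% and 90.2% of the cytosine reads of the gene, on 49 cytosines from position 133 to 321, with up to 5310 reads on 1 cytosine. NM_001166590.1 held 4.24% ± 0.524 and NM_001166589.1 3.52% ± 0.260 (SD, n = 3), and the other 5 held below 1% each. NM_181582.4 was unconverted in 1.26% ± 0.0506 of reads (SD, n = 3). Of the 138 testable cytosines of Eif5a, none was called at any level, where 0.469% of all testable cytosines were, so few calls could have been seen. Its paralogue Eif5a2, listed as a single model, had 8 testable cytosines at a median coverage of 3.33 ± 0.577 reads (SD, n = 3).

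The models of Eif5a differ at their 5′ ends, which the RefSeq starts show (GRCm38.p6, minus strand). The first 30 nt of a pair of models whose starts lie 455 nt apart are printed with listed cytosines in capitals, at chr11:69920601-69920630 and chr11:69921056-69921085.
Eif5a NM_001166590.1: cgttgaccggggccgcatggctgcacgggg
Eif5a NM_001166596.1: ggaggggggCagaagggagCggCggCtgtC
The first stretch had no listed cytosine. The second had 5 cytosines with 67 reads over replicates 1 and 2, of which 2 were unconverted, and none listed in replicate 3. With so few reads nothing can be said of a difference between the starts.

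**Figure D5:**
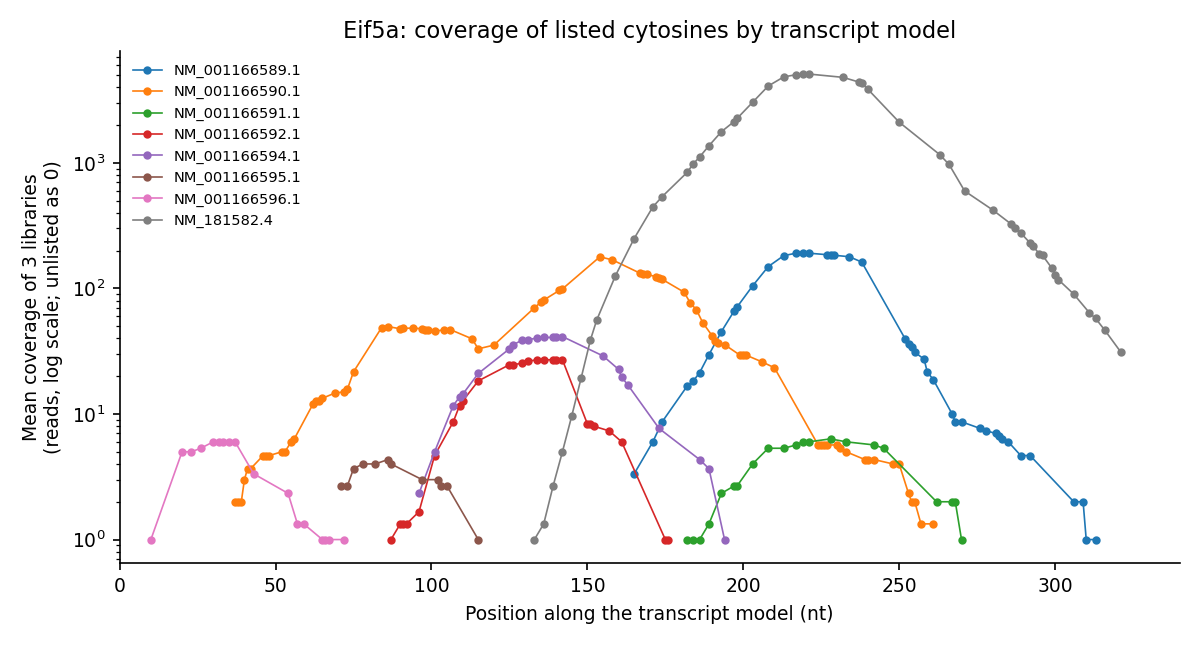
Mean coverage of the 3 libraries (y, reads, log scale, a cytosine not listed in a library taken as 0) at listed cytosines of the Eif5a transcript models by position (x, nt). NM_181582.4 carries most of the reads, and no model has a listed cytosine beyond position 321.

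The same limit touched other members with several models. Transcripts of the 36 genes with 1 model in the name table had a median span of 1714 nt between first and last listed cytosine and 358 listed cytosines, whereas the 40 transcripts of the 19 genes with several models had 160.5 nt and 42.5. Eif4g1, the main eIF4G scaffold, had 38 listed cytosines and none testable, and Eif4a1, the main eIF4A helicase, had 81, all between positions 1087 and 1325. Low coverage of a gene with several models says nothing of its expression, and sites in the parts not listed were not analysed here. Eif4e1b alone among the 56 protein-coding Eif genes of the name table had no listed cytosine.

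Neighbouring cytosines and position along the transcript were also compared. Eif cytosines followed directly by another listed cytosine were unconverted in 1.41% ± 0.0694 of reads, and the rest in 1.51% ± 0.0782 (SD, n = 3), lower in 3 of 3 libraries. In the first 50 nt the Eif share was 1.24% ± 0.128, against 1.34% ± 0.0612 in other genes. Between positions 51 and 200 both were 1.52%. Beyond position 200 the shares were 1.48% ± 0.0782 in Eif and 1.46% ± 0.0630 in other genes (SD, n = 3). In each of these pairs the ranges over the libraries overlapped, and no test was run.

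Genes that act beside the Eif factors were taken from a list of 36, of which 35 were listed and 30 had testable cytosines. Among 9821 testable cytosines, 2 were candidates, where 0.0473% of all testable cytosines were called. Rptor (NM_028898.2), the mTORC1 subunit that recruits 4E-BP1, was unconverted at position 6420 in 21 of 104, 20 of 104 and 18 of 90 reads, a mean of 19.8% ± 0.509 (SD, n = 3; adjusted p = 3.06e-41 by the exact binomial test). Its SD was below that of the Eif4ebp1 site. Paip2b (NM_146169.2), an inhibitor of poly(A)-binding protein, was unconverted at position 311 in 5 of 50, 2 of 39 and 10 of 38 reads, a mean of 13.8% ± 11.1 (SD, n = 3), with replicate 3 far above the others. In the limma gene fit 0 of the 26 list genes tested were higher and 0 lower. With the coverage-dependent prior Larp1 was higher, and Bzw1, Bzw2 and Pabpc1 were lower, where 7.65% and 6.76% of all genes were called.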

How the data were processed

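The 3 mRNA bisulfite libraries of 1 group were analysed. BSMAP and genome build mm9 are named per the submitters' processing notes; the version, the counting and the annotation were not given in the sources used. Per cytosine, the authors deposited 2 values, coverage (a raw count of reads) and the fraction left unconverted; no cytosine below 3 reads is listed. Coverage times fraction was whole, within 1e-06, at 100% of cytosines and was taken as unconverted reads. Of 15021 transcript identifiers, 14932 matched a symbol in RefSeq names of GRCm38.p6, used for names and 5′ ends only.

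Sites were tested in Python 3.11.15 with scipy 1.17.1, and genes in R 4.3.3 with limma 3.58.1 (a one-sample moderated test of log2 odds minus the library's log2 odds, 0.5 added to both counts, Benjamini-Hochberg over 7356 genes). Both procedures were run on simulated independent binomial counts at the real coverages, with some sites or genes shifted. These counts had no shared reads, copies or extra spread between libraries, so they cannot show how the procedures behave on the real reads. No molecular identifiers are described, so reads may be PCR copies, and intervals (95%, exact binomial) and the limit that a count of 0 allows (3 reads, or 30% at a coverage of 10) cover counting error only. No library was a copy of another: coverage was equal at 9.44% (1 and 2), 9.40% (1 and 3) and 9.95% (2 and 3) of the cytosines listed in both. Each library was counted as 1 replicate, though their independence is not known. A chi-square of at least 4904 between their Eif read counts does not measure sampling noise, because a read counts at every cytosine it spans.

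Members, role groups, markers and the gene list were chosen with earlier results of these data known. Genes and sites were named by rule: all candidates, the 5 highest testable cytosines, the 10 deepest genes, genes past the gene fit, Eif4ebp1 to Eif4ebp3, Eif5a and Eif5a2, and the extremes of each role. Other genes and sites named (those near the rule, Eif4b, Eif4g1, Eif4a1, Eif4enif1, Eif4e1b, the list genes of the coverage-dependent prior and Eif2s2, Eif3a and Eif4e among weak sites, and the sequences) were chosen after their values were seen. Alternatives changed the coverage and share minimums, background, combination, read minimum, prior and libraries.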

Additional observations from a re-analysis of the deposited data

How the results depend on the processing

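The Eif4ebp1 site was called under 10 of 10 alternatives. Of the other candidates, Eif3i and Eif4a2 were called under 8 of 10 and Eif4e2 and Eif2b5 under 5 of 9. Candidate counts in all genes and in Eif genes were 490 and 3 at a coverage minimum of 20, 87 and 1 at a share of at least 20%, 3322 and 45 at 5%, and 109 and 1 when the largest p of any library replaced Fisher's combination. Without each replicate in turn the Eif count ran from 5 to 9, the 9 without replicate 3. The gene fit called none of 7356 genes as designed, with 1445 at an unadjusted p below 0.05. It called 294 (200 higher, 94 lower; Eif 5, of which 3 higher and 2 lower) at 5000 reads or more, and 1060 (563 higher, 497 lower; Eif 19, of which 8 higher and 11 lower) with limma's coverage-dependent prior, which was chosen after seeing the data. The family difference turned to -0.0172 points without the 10 Eif genes with the most cytosine reads, also chosen after seeing the data; the cause was not tested. Among the other 74 recomputed counts and differences, no mean changed direction and no count moved by over 1.5 times. That is how these 74 were set apart. Most of them were gene-fit counts, totals and their parts alike, that stayed at 0 and so say little of stability. Single libraries and sites did change. The family difference was positive in 1 of 3 libraries as a median over genes and also without Eif4ebp1. Without replicate 1 the Eif count stayed at 5, but 3 of these sites were shared with the main setting. At a coverage of 10 reads a count of 0 allows a share of up to 30%. No paired analysis was possible because the samples form a single group.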
